A study of Rattus norvegicus with 4 samples.

Results

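The genes described are the potassium channel subunits of the rat, taken by name: every gene on the array with a symbol of the form Kcn, family letters and a number, whose probe set names that gene alone. There were 75 such genes among 14217 named genes, covered by 126 of 31042 probe sets, and a gene with several probe sets is represented by the one with the strongest mean log2 signal over the 4 arrays. They span 18 families and 6 roles. A gene table of the rat lists 93 protein-coding symbols of this form, and the other 18 were not analysed here. Total RNA of rat adrenal medulla was hybridised to 4 single-colour arrays, 2 from rats immobilized for 2 h and 2 from unstressed rats. The labels used here do not give strain, sex or age, or whether an array holds 1 animal or a pool, so p-values measure only the spread between these arrays, which may be technical. Values are linear intensities as deposited, and 544 is the mean intensity below which a gene was not tested.

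The adrenal medulla is the inner part of the adrenal gland, and its chromaffin cells are excitable: they fire action potentials and release adrenaline and noradrenaline. Potassium channels let potassium leave the cell, which holds the membrane at rest, ends each action potential and sets how often a cell fires. Voltage-gated channels open on depolarisation, calcium-activated channels open as calcium enters, inward rectifiers and 2-pore channels act near rest, and auxiliary subunits alter the gating or the traffic of the pore-forming ones. Chromaffin cells are known for their large-conductance calcium-activated channels, and cells of the adrenal cortex for acid-sensitive 2-pore channels.

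The dissected tissue carried transcripts of both parts of the gland. Of 8 chromaffin markers 7 were measured, with mean intensities of 19595 to 58189, and of 10 adrenal cortex markers 8 were measured, with means of 18334 to 67427. No measured marker was at 0. The summed intensity of the chromaffin markers was 274525 and 387265 on the immobilized arrays and 289396 and 314280 on the unstressed arrays. That of the cortex markers was 289979 and 393405 on the immobilized arrays and 340333 and 386360 on the unstressed arrays. Both sums overlap between the groups, and 0 of the chromaffin and 2 of the cortex markers, Mrap and Nr5a1, rose. In the other direction 5 of the 8 cortex markers had log2 changes below 0, none past the threshold. The median change of the 8 was -0.26. Of the markers of Schwann and sustentacular cells 1 rose and 1 fell, of endothelium 0 rose and 1 fell, of neurons 1 of 5 tested, Snap25, rose, and of macrophages, blood and fat none passed. Beside these counts, 11.7% of all tested probe sets rose and 19.4% fell. A channel gene's signal can therefore come from either part of the gland, and in such tissue fewer cells of a type and less RNA per cell cannot be told apart.

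After immobilization 5 potassium channel genes rose and 1 fell. Kcnk5, a 2-pore channel, had a fitted log2 change of 4.60, but its unstressed readings were not above those of bacterial control probe sets, against which the rise was at least 3.42. Kcnk12, of the same class, had 2.67, with 1 of its unstressed readings in that background range. Kcns3, Kcnj8 and Kcnmb4 rose by 1.08, 0.82 and 0.77 on the log2 scale, and Kcnh2, a voltage-gated channel, fell by 1.34. The other 26 tested genes did not pass the test, with log2 changes of at most 0.77 in size. These 6 calls were 18.8% of the 32 tested genes, and of all 18625 tested probe sets 31.1% passed limma's moderated test, with p-values adjusted by Benjamini-Hochberg and a threshold of 0.05. Rises were 5 of 32 here against 11.7% of all tested probe sets, and the fall was 1 of 32 against 19.4%. Of the 5 rises Kcnk5, Kcnk12 and Kcns3 reached the tested level only through the immobilized group, so the count of rises is a description and no measure of direction. The arrays of the groups did not overlap at 19 of the 32 genes, or 59.4%, and at 67.8% of all tested probe sets.

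The median log2 change of the 32 genes was 0.22, and that of all tested probe sets was -0.12. Centring each array on its median moved the channel genes' median to 0.36 and that of all tested probe sets to 0.02, which by construction leaves the difference between these medians at 0.34. That difference was 0.105 without unstressed 2, 0.104 without the filter and 0.51 without unstressed 1. With that centring 11 channel genes rose and 1 fell, and of all tested probe sets 2844 rose and 2497 fell, against 2180 and 3619 with the deposited scaling. The added rises were Kcnj5, Kcnj14, Kcnma1, Kcnip3, Kcnk3 and Kcnj11. Without unstressed 2 the median of the 32 genes was -0.03, with 15 of 32 changes above 0, and without unstressed 1 it was 0.40, with 22 of 32. The counts were 10 rises and 1 fall without unstressed 1, 6 rises and 4 falls without unstressed 2, and 1 each when either immobilized array was omitted. With an immobilized array left out, calls among all tested probe sets also dropped, to 11.1% without immobilized 1 and 9.01% without immobilized 2.

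**Figure D1:**
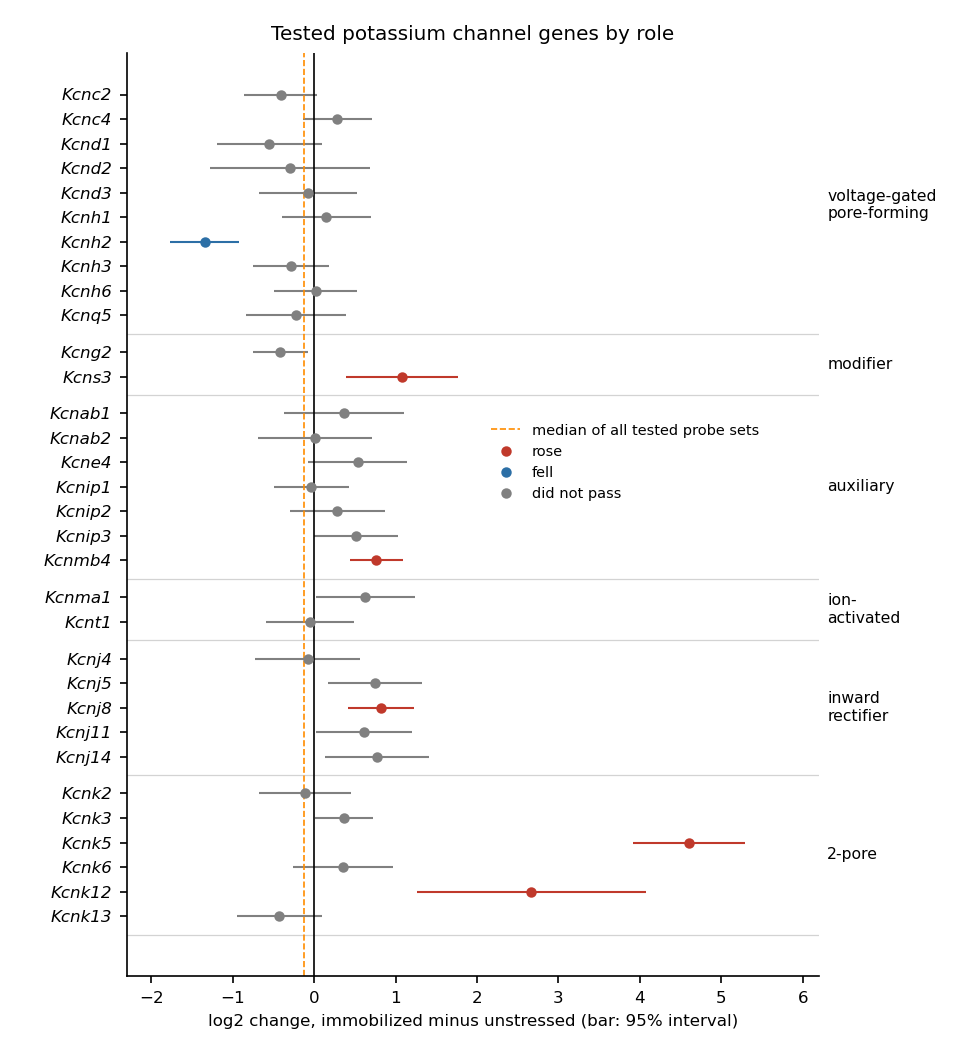
The log2 change (immobilized minus unstressed, horizontal axis) of the 32 tested potassium channel genes, ordered by role down the page, with the 95% interval of the moderated fit; red, blue and grey mark genes that rose, fell and did not pass, and the dashed line is the median of all tested probe sets. Kcnk5 at 4.60 and Kcnk12 at 2.67 have the highest values of the 32 and Kcnh2 at -1.34 the lowest.

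The arrays within a group also differed for these genes. Of the 32 tested genes 23 were higher on immobilized 1 than on immobilized 2, and 24 were higher on unstressed 1 than on unstressed 2, against 52.5% and 51.7% of all tested probe sets. All 6 neuronal markers were likewise higher on unstressed 1 than on unstressed 2, as were 6 of 7 chromaffin markers, and 0 of 8 cortex markers were. The median log2 differences were 0.73, 0.06 and -0.19 for these markers and 0.26 for the 32 genes. The chromaffin difference between the unstressed arrays was thus small. Schwann and sustentacular markers (5 of 5) and smooth muscle and pericyte markers (6 of 7) were also higher on unstressed 1. Fewer were in endothelium (1 of 6), macrophages (2 of 6), blood (0 of 2) and fat (1 of 4). On immobilized 1, against immobilized 2, 5 of 6 neuronal, 7 of 7 chromaffin and 6 of 8 cortex markers were higher. Here the median log2 differences were 0.27, 0.48 and 0.47 for these markers and 0.19 for the 32 genes. Between the immobilized arrays the chromaffin and cortex differences thus exceeded that of the 32 genes. The part of this difference between the arrays in the results was not tested.

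Among the voltage-gated pore-forming subunits 24 genes were measured and 10 tested, of which 0 rose, 1 fell and 9 did not pass. Of all tested probe sets 11.7% rose and 19.4% fell. Here and in the roles below, the tested genes are too few for the counts to show a trait of a role. Their median log2 change was -0.25. Kcnh2 encodes the ERG channel, which carries the rapid delayed rectifier current of the heart and a current that restrains firing in endocrine cells. Its intensity was 1612 and 1728 on the immobilized arrays and 4774 and 3783 on the unstressed arrays. Both immobilized arrays lay below both unstressed arrays, and the gap was larger than the spread within either group. The mean was 1670 ± 81.5 after immobilization and 4279 ± 700.1 in unstressed rats (SD, n = 2 each), a log2 change of -1.34 ± 0.18 (SE), or 2.53-fold lower (adjusted p = 0.0026 in limma). With each array left out in turn the change lay between -1.51 and -1.17, and the highest adjusted p was 0.0403.

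The other ERG and ether-a-go-go relatives did not share that change at the threshold. Kcnh6, a second ERG subunit, read 1142 and 1079 after immobilization and 1207 and 992.6 in unstressed rats. Its groups overlap, and its log2 change of 0.02 had a 95% interval of -0.49 to 0.53. Kcnh1, the founding ether-a-go-go subunit, had a change of 0.15 ± 0.23. Kcnh3, of the ELK branch, had -0.28 ± 0.20. The differences between these changes and that of Kcnh2 were not tested.

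Of the fast-activating and A-type subunits none passed. Kcnc4, an inactivating channel that repolarises action potentials quickly, was the brightest pore-forming voltage-gated member by its probe set, with 4973 and 4320 after immobilization and 4367 and 3298 in unstressed rats. The groups overlap, at a log2 change of 0.29 ± 0.18, and its other probe set, under the filter, differed by -0.80. It passed as a rise without unstressed 1 (0.49, adjusted p = 0.0424 in limma), was 0.09 without unstressed 2, and was -0.26 with its probe sets averaged. Kcnc2, a fast delayed rectifier, read 1638 and 2026 after immobilization and 2326 and 2529 in unstressed rats. Its groups did not overlap, yet the change of -0.41 ± 0.19 did not pass (adjusted p = 0.142 in limma). Its 6 probe sets had changes between -1.04 and -0.41, and a dimmer one, at 479.6 and 427.8 after immobilization and 864.6 and 1015 in unstressed rats, fell by 1.02 on the log2 scale (adjusted p = 0.0171 in limma). Kcnd1, Kcnd2 and Kcnd3, which carry the transient A-type current, had changes of -0.55, -0.30 and -0.07, none past the threshold. With an array left out Kcnd2 ranged from -0.90 to 0.31 and Kcnd3 from -0.32 to 0.17, so neither has a settled direction. Kcnd1 read 893.1 and 764.2 after immobilization and 1514 and 980.8 in unstressed rats, with no overlap, and it passed only without unstressed 2 (-0.86, adjusted p = 0.0366). Kcnq5, a subunit of the M-current that muscarinic receptors close, had -0.23 ± 0.26.

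The modifier subunits form no channel of their own and alter other voltage-gated channels, which they join. Of 7 measured genes 2 were tested. Kcns3 read 879.2 and 833.0 on the immobilized arrays and 309.6 and 509.1 on the unstressed arrays. Both immobilized readings were higher, and the unstressed arrays differed more from each other than the immobilized ones did. The means were 856.1 ± 32.7 after immobilization and 409.3 ± 141.0 in unstressed rats (SD, n = 2 each), a log2 change of 1.08 ± 0.29, or 2.11-fold (adjusted p = 0.0314 in limma). The call was lost without immobilized 1, immobilized 2 or unstressed 1 (adjusted p = 0.174, 0.164 and 0.074) and when dim probe sets were also tested (0.0702). Kcng2, another modifier, read 3713 and 3835 after immobilization and 5473 and 4625 in unstressed rats. Its groups did not overlap, its change of -0.41 ± 0.14 did not pass (adjusted p = 0.0692 in limma), and it did without unstressed 2 (-0.53, adjusted p = 0.0248). The other tested probe set of Kcng2 had a change of -0.49. The pore-forming partner Kcnb2 lay under 544, and Amigo1, a membrane protein that joins voltage-gated channels, fell by 0.82 ± 0.19 on the log2 scale, with 3005 and 2132 after immobilization and 4470 and 4508 in unstressed rats (adjusted p = 0.0192 in limma). That call was lost without immobilized 2 (-0.58, adjusted p = 0.129).

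**Figure D2:**
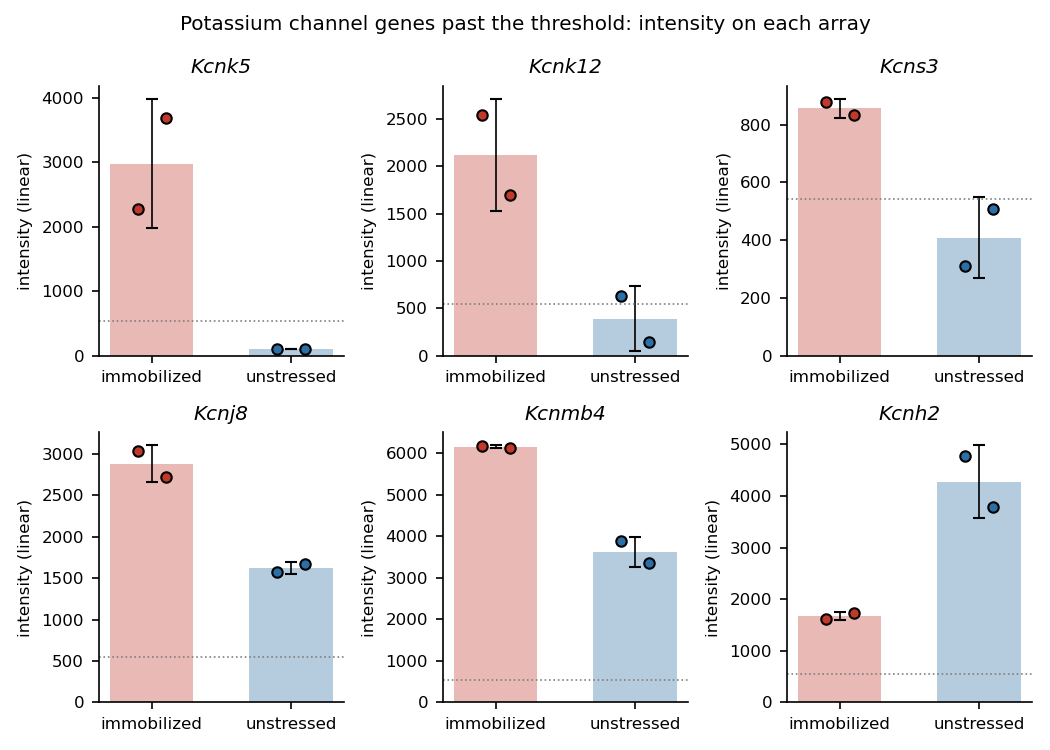
Intensity (linear, vertical axis from 0) on each array for the 6 potassium channel genes past the threshold, with immobilized arrays in red at the left and unstressed arrays in blue at the right of each panel; bars are means, whiskers the SD of 2 arrays, points single arrays and the dotted line the level of 543.8 used as the filter. The unstressed readings of Kcnk5, 100.9 and 106.6, lie far below that line, and those of Kcnj8, Kcnmb4 and Kcnh2 lie above it.

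Of 13 auxiliary subunits 7 were tested, of which 1 rose and 6 did not pass, or 14.3% called beside 31.1% of all tested probe sets. The median log2 change of the 7 was 0.37. Kcnmb4 encodes the beta subunit that neurons add to the large-conductance calcium-activated channel. It read 6186 and 6143 on the immobilized arrays and 3887 and 3366 on the unstressed arrays. The immobilized arrays nearly coincide and both lie above the unstressed ones. The means were 6165 ± 30.6 after immobilization and 3627 ± 368.4 in unstressed rats (SD, n = 2 each), a log2 change of 0.77 ± 0.14, or 1.70-fold (adjusted p = 0.0074 in limma). Omitting either immobilized array ended the call (adjusted p = 0.0794 without immobilized 1 and 0.084 without immobilized 2), while the change stayed between 0.66 and 0.87 over all 4 omissions.

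Kcnma1, the pore of the same channel, did not pass. Its intensity was 6240 and 7865 after immobilization and 5874 and 3474 in unstressed rats. The groups do not overlap, but the unstressed arrays lay further apart than the groups' nearest readings. The log2 change was 0.63 ± 0.25 (adjusted p = 0.103 in limma), with 1.01 without unstressed 1 (adjusted p = 0.00143) and 0.25 without unstressed 2. Its dimmer probe sets had changes of 0.44 and 0.89, and the mean over its probe sets passed (0.66, adjusted p = 0.0405 in limma). Kcnmb1, the beta subunit known from smooth muscle, lay under 544, with 181.5 and 128.4 after immobilization and 327.4 and 261.8 in unstressed rats. Kcnt1, a sodium-activated channel, had a change of -0.05 ± 0.23.

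Kcne4, a small single-span subunit that can silence voltage-gated channels, read 1835 and 1454 after immobilization and 1351 and 929.9 in unstressed rats. The groups do not overlap, and the change of 0.54 ± 0.26 did not pass (adjusted p = 0.156 in limma), though it did without unstressed 1 (0.80, adjusted p = 0.0361). Kcnip3, a calcium-binding partner of A-type channels that is also known as a transcriptional repressor, read 2363 and 1771 after immobilization and 1540 and 1320 in unstressed rats, with a change of 0.52 ± 0.22 (adjusted p = 0.117 in limma). Its relatives Kcnip1 and Kcnip2 had changes of -0.03 ± 0.20 and 0.29 ± 0.24. The beta subunits Kcnab1 and Kcnab2, which are related to oxidoreductases and bind Kv1 channels, had 0.37 ± 0.31 and 0.01 ± 0.30. Kcnab1 passed without unstressed 1 (0.78, adjusted p = 0.0485). All 6 measured Kcna genes, which encode Kv1 pores, lay under 544.

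Among 15 inward rectifiers 5 were tested, and 1 rose while 4 did not pass, or 20% called beside 31.1% of all tested probe sets. The median log2 change of the 5 was 0.75. Kcnj8 encodes the ATP-sensitive pore found in blood vessel muscle and pericytes. It read 3038 and 2724 on the immobilized arrays and 1570 and 1676 on the unstressed arrays. Both immobilized arrays lay above the unstressed ones, by more than the spread within either group. The means were 2881 ± 221.9 after immobilization and 1623 ± 75.4 in unstressed rats (SD, n = 2 each), a log2 change of 0.82 ± 0.17, or 1.77-fold (adjusted p = 0.0129 in limma). Omitting either immobilized array ended the call (adjusted p = 0.11 without immobilized 1 and 0.0806 without immobilized 2), with changes of 0.74 to 0.90 over the 4 omissions.

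Of the tested markers of smooth muscle and pericytes 2 of 6 rose and 0 fell, or 33.3% called beside 31.1% of all tested probe sets. Their summed intensity was 31280 and 31543 on the immobilized arrays and 20969 and 18319 on the unstressed arrays, with no overlap, and Tagln and Acta2 made up most of it. Acta2, smooth muscle actin, rose by 1.36 ± 0.14 and Tagln by 0.84 ± 0.12 on the log2 scale, whereas Myh11, the smooth muscle myosin, had a change of 0.31, and the pericyte markers Rgs5 and Pdgfrb had 0.07 and 0.02, and the muscle filament gene Des had -0.22. Their part in the change of Kcnj8 was not tested. Abcc9, the sulphonylurea receptor that pairs with Kcnj8, read 6371 and 5911 after immobilization and 5839 and 4903 in unstressed rats, and its change of 0.20 ± 0.14 did not pass.

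Kcnj11, the ATP-sensitive pore of endocrine cells and neurons, read 2784 and 2124 after immobilization and 1925 and 1313 in unstressed rats. The groups do not overlap, at a log2 change of 0.61 ± 0.25 (adjusted p = 0.107 in limma), and it passed without unstressed 1 (0.88, adjusted p = 0.0146). Its other probe sets disagreed, with changes of 0.35 and -0.12. Its partner Abcc8 had 0.14 ± 0.20.

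Kcnj5, a pore opened by G protein beta-gamma subunits and known in the zona glomerulosa of the cortex, read 2583 and 2251 after immobilization and 1764 and 1154 in unstressed rats. Its change of 0.75 ± 0.24 lay just outside the threshold (adjusted p = 0.0567 in limma). It passed after quantile normalization (0.89, adjusted p = 0.0272 in limma) and in a fit on 1 probe set per gene (0.0465). Without unstressed 1 the change of Kcnj5 was 1.05. Kcnj3 and Kcnj6, with which it forms such channels, lay under 544, and the 4 probe sets of Kcnj6 had differences from -0.997 to 0.943. Kcnj14, a strong inward rectifier, read 1190 and 903.8 after immobilization and 506.8 and 711.6 in unstressed rats, without overlap. Its change of 0.77 ± 0.27 did not pass (adjusted p = 0.0708 in limma), but it did after quantile normalization (0.91, adjusted p = 0.043) and without unstressed 2 (1.01, adjusted p = 0.027). Kcnj4, of the same strong type, had -0.08 ± 0.27.

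The 2-pore channels carry background currents. Of 11 measured genes 6 were tested, of which 2 rose, 0 fell and 4 did not pass. The calls were 33.3% of the 6, beside 31.1% of all tested probe sets. Kcnk5 encodes an acid-sensitive channel that opens in alkaline surroundings and is known from the kidney tubule. It read 2271 and 3689 on the immobilized arrays and 100.9 and 106.6 on the unstressed arrays. The unstressed readings lie within the range of the array's 27 probe sets for Bacillus transcripts, 2.18 to 257, which rat RNA should not fill, so its level in unstressed rats was not shown to exceed background. The means were 2980 ± 1003 after immobilization and 103.7 ± 3.97 in unstressed rats (SD, n = 2 each). The log2 change was 4.60 ± 0.29 with an adjusted p of 1.87e-04 in limma. Set against the highest Bacillus reading of all arrays, 257, in place of the unstressed readings, the immobilized group mean was at least 10.7-fold higher, taken over log2 values. The change lay between 4.26 and 4.95 with each array left out, with a highest adjusted p of 0.0124. Kcnk5 reached the tested level through its immobilized arrays alone, as did Kcnk12 and Kcns3 by their group means, so these 3 could enter the test only by differing in that direction.

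The bases upstream of Kcnk5, as the gene with the largest fitted change, are shown here with those of Kcne4, the tested gene with the largest change in size among those whose upstream bases hold one of the searched motifs. The motifs were the cAMP response element TGACGTCA, its shorter core TGACG, which the full element contains, and the AP-1 site TGANTCA, on both strands, from 250 bases before to 50 after the start in the RefSeq table. Capitals mark a match, and each line runs 5′ to 3′ over the 250 bases before the start, on build GRCr8: chr15:4171375-4171624 (+ strand) for Kcnk5 and chr9:87695798-87696047 (+ strand) for Kcne4.
Kcnk5: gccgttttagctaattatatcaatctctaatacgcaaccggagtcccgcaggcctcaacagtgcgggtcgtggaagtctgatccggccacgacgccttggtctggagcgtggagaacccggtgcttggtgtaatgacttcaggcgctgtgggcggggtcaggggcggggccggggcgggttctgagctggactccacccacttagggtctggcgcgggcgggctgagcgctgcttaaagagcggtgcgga
Kcne4: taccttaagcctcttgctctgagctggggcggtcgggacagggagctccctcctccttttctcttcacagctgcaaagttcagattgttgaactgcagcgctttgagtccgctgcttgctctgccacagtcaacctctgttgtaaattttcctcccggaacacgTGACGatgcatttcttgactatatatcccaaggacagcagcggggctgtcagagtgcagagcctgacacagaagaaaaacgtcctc
The Kcnk5 stretch was 62.8% G and C with 22 CG pairs, and none of the searched motifs occurs in it. The Kcne4 stretch was 52.4% G and C with 9 CG pairs, and TGACG begins 86 bases before its start. That start lies inside the span of Kcne4 in the gene table, chr9:87674264-87699088, so the stretch is not upstream of the whole gene. Of the 75 genes 52 were in the promoter table, among them 4 of the 5 that rose and 25 of the 32 tested. TGACGTCA was in 0 of the 52 and in 1.91% of all 27457 promoters, TGACG in 12 of 52, or 23.1%, and 22.0%, and TGANTCA in 3 of 52, or 5.77%, and 7.33%. None of the 4 promoters of genes that rose held any of them. A match describes letters only and shows neither a site nor its use.

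Kcnk12 encodes a relative of the halothane-inhibited channel that gives little current by itself. It read 2534 and 1696 on the immobilized arrays and 632.1 and 151.3 on the unstressed arrays. Both immobilized readings were higher, but the unstressed readings differed several-fold, and the reading on unstressed 2 lies within the Bacillus range. The log2 change was 2.67 ± 0.59, or 6.35-fold (adjusted p = 0.016 in limma). It was 3.64 without unstressed 1 and 1.69 without unstressed 2, and omitting either immobilized array ended the call (2.38 with an adjusted p of 0.129 without immobilized 1, and 2.95 with 0.0915 without immobilized 2). Its relative Kcnk13 read 609.2 and 612.1 after immobilization and 869.7 and 787.4 in unstressed rats, with a change of -0.43 ± 0.22 that did not pass.

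Kcnk3, an acid-sensitive background channel of chromaffin and cortical cells, was the member with the highest mean signal, 19082. It read 24129 and 19035 after immobilization and 16776 and 16390 in unstressed rats. The groups do not overlap, and the change of 0.37 ± 0.15 did not pass (adjusted p = 0.105 in limma). A dimmer probe set, at 6660 and 7220 after immobilization and 3389 and 4854 in unstressed rats, rose by 0.77 ± 0.19 (adjusted p = 0.0224 in limma). The third, under the filter, differed by 0.92 with overlapping groups. All 3 probe sets of Kcnk3 thus lay above 0, and the 2 tested ones differed in whether they passed. Its partner Kcnk9 lay under 544, with 576.0 and 476.3 after immobilization and 472.5 and 582.9 in unstressed rats. Kcnk2, a channel opened by stretch and lipids, read 6657 and 5594 after immobilization and 8490 and 5121 in unstressed rats. Its groups overlap, and its change was -0.11 ± 0.24, but without unstressed 2 it passed downward (-0.48, adjusted p = 0.0455). Kcnk6 had 0.35 ± 0.26.

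Several probe sets of a gene did not always give like values. In the whole set 31 genes had more than 1 probe set, and of the 42 probe sets tested 6 rose and 2 fell. Of all tested probe sets 11.7% rose and 19.4% fell. The probe sets of Kcnab1 had changes of -0.28 and 0.37, those of Kcnip3 -0.55 and 0.52, and those of Kcnd2 -0.30 and 0.44. The 3 of Kcnq5 lay between -0.44 and 0.58, the 3 of Kcnip2 between -0.15 and 1.26, and the 4 of Kcnab2 between -0.58 and 0.05. Both probe sets of Kcnj5 lay above 0, at 0.48 and 0.75, as did those of Kcnk6, at 0.35 and 0.92. Both of Kcnk2 lay below 0, at -0.41 and -0.11, as did those of Kcnj4, at -0.41 and -0.08. The 3 of Kcnd3 ranged from -0.46 to -0.07, the 3 of Kcnt1 from -0.42 to 0.02 and the 3 of Kcnip1 from -0.07 to 0.07. Median centring added 0.14 to every change. By construction it puts the probe sets that represent Kcnk2, Kcnj4, Kcnd3, Kcnt1 and Kcnip1 above 0. The lowest probe sets of Kcnk2, Kcnj4, Kcnd3 and Kcnt1 stay below 0 with it, so no direction is given for these genes. The 6 genes past the threshold had 1 probe set each.

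**Figure D3:**
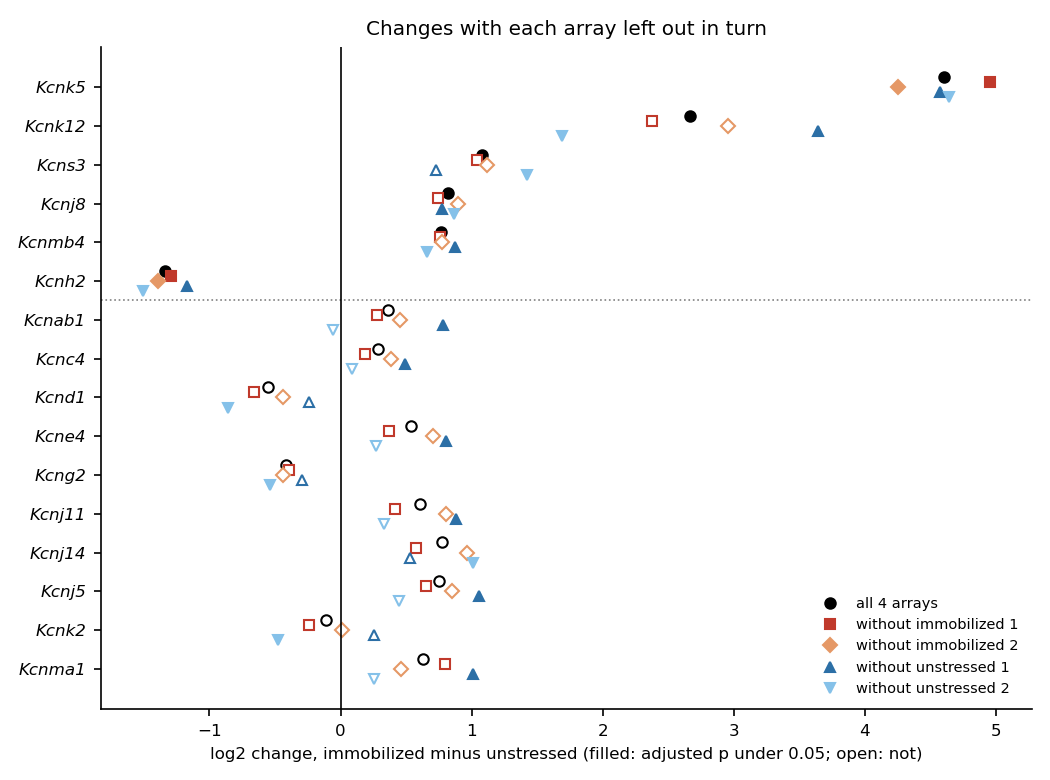
The log2 change (immobilized minus unstressed, horizontal axis) with all 4 arrays and with each array left out, for the 6 genes past the threshold (above the dotted line) and the 10 others that pass with some array left out (below it); filled symbols have an adjusted p under 0.05 in limma. Kcnk5 and Kcnh2 are filled in every setting, from 4.26 to 4.95 and from -1.51 to -1.17, and the other calls above the line turn open without either immobilized array.

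In 43 genes the mean intensity lay under 544, from 30.8 for Kcna1 to 539.7 for Kcna6, and the dimmest tested gene, Kcnd2, had 581.4. The probe set filter, set on mean log2 values, divided the 75 genes in the same way. Among the voltage-gated pores these were all 6 measured Kcna genes, Kcnb2, Kcnc1, Kcnh4, Kcnh5, Kcnh7, Kcnh8, Kcnq1 and Kcnq3. Among the modifiers they were Kcng3, Kcns1, Kcns2, Kcnv1 and Kcnv2, and among the auxiliary subunits Kcnab3, Kcne1, Kcne2, Kcne3, Kcnip4 and Kcnmb1. The 3 measured small-conductance and intermediate-conductance calcium-activated genes, Kcnn1, Kcnn3 and Kcnn4, were under the level too. So were the inward rectifiers Kcnj1, Kcnj2, Kcnj3, Kcnj6, Kcnj9, Kcnj10, Kcnj12, Kcnj13, Kcnj15 and Kcnj16 and the 2-pore genes Kcnk1, Kcnk4, Kcnk9, Kcnk10 and Kcnk15. Their signals do not show that these genes are silent.

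Of these 43 genes 15 had no array above the highest Bacillus reading of 257, 17 had some and 11 had all 4. Their groups did not overlap at 20 of 43, or 46.5%, against 46.1% of all untested probe sets. When the filter was dropped, limma called 0 of the 43 by their representative probe sets, with 2 at an unadjusted p under 0.05. It called 5.04% of all probe sets under the filter. A dimmer probe set of Kcna6 then passed as a fall (log2 difference -1.995, adjusted p = 0.0428 in limma). It read 5.06 and 10.1 after immobilization and 119.2 and 48.6 in unstressed rats, all within the Bacillus range. Of the representative probe sets, that of Kcnj6, a G protein-gated pore, had the lowest adjusted p, 0.0883 in limma. It read 330.7 and 280.9 after immobilization and 736.2 and 529.3 in unstressed rats. Kcnn4, the intermediate-conductance calcium-activated channel, read 295.1 and 284.2 after immobilization and 175.9 and 88.2 in unstressed rats (adjusted p = 0.144 in limma). Kcnq1, the pore of the slow delayed rectifier, read 173.5 and 474.4 after immobilization and 1105 and 375.8 in unstressed rats, and its groups overlap.

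**Figure D4:**
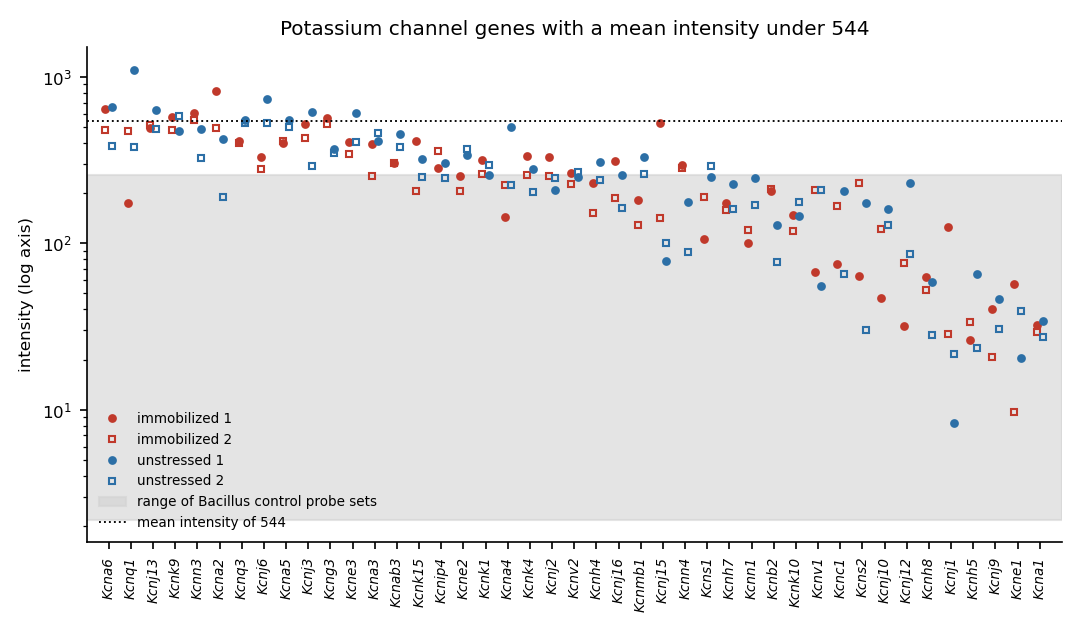
Intensity (log axis) on each array of the 43 potassium channel genes with a mean under 544, ordered from the highest mean at the left to the lowest at the right, with immobilized arrays in red and unstressed arrays in blue; the grey band is the range of the 27 Bacillus control probe sets, 2.18 to 257. For 15 of the genes all 4 readings lie within or under the band.

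Genes that work with potassium channels were taken as 3 further lists. Of 10 partner proteins 7 were measured and 4 tested, with 0 rises, the fall of Amigo1 and a median log2 change of 0.11. The call was 25% of the 4, beside 31.1% of all tested probe sets. Dpp6, a partner of A-type channels, had a change of 0.08 ± 0.22. Of 18 HCN and sodium channel genes 15 were measured and 8 tested, of which 1 rose and 0 fell. That is 12.5% called, beside 31.1% of all tested probe sets, and the median log2 change was 0.14. Scn9a, a sodium channel of sympathetic and sensory neurons and of chromaffin cells, read 6263 and 6333 after immobilization and 4043 and 2392 in unstressed rats, a rise of 1.01 ± 0.24 on the log2 scale (adjusted p = 0.0203 in limma) that was lost with either immobilized array left out. Nalcn, a sodium leak channel, had 0.11 ± 0.19.

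Of 21 scaffolds and trafficking regulators 20 were measured and 17 tested, of which 4 rose and 1 fell, with a median of 0.12. Rgs4, which shortens G protein signals to inward rectifiers, rose by 1.87 ± 0.22 on the log2 scale, with 23814 and 18859 after immobilization and 7098 and 4726 in unstressed rats. Sgk1, a kinase that raises the surface number of several channels, rose by 1.11 ± 0.13. Snap25, a fusion protein that binds some Kv channels, and the scaffold Dlg2 rose by 0.84 ± 0.23 and 0.77 ± 0.23. The same Snap25 probe set is the neuronal marker that rose, so its rise is counted in both lists. Akap9, an anchor for kinases on channels, fell by 0.58 ± 0.14. Rgs4 and Sgk1 kept their calls in every alternative run. Snap25 and Dlg2 lost theirs with either immobilized array left out, without the filter (adjusted p = 0.0567 and 0.0585 in limma) and without the intensity trend (0.0626 and 0.0526). Snap25 also lost it after quantile normalization (0.0541) and without unstressed 2 (0.0862), and Dlg2 without unstressed 1 (0.0727). Akap9 lost it with median centring (0.0638), without immobilized 1 (0.147) and without immobilized 2 (0.11). The calls were 5 of 17, or 29.4%, beside 31.1% of all tested probe sets.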

How the data were processed

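The authors deposited 1 linear intensity per probe set and array. The sources used here do not give how probes were summarised. The values show that each array had been scaled to a trimmed mean of 2501, so that scaling was kept. No detection calls were used, and there were 0 unused sample columns. After removal of 57 control probe sets, intensities were turned into log2(intensity + 16), which understates changes of dim genes, and the 18625 probe sets whose mean log2 value reached the 40th percentile, close to an intensity of 543.8, were fitted with limma 3.58.1 in R 4.3.3 (lmFit, then eBayes with trend). Tests were two-sided, adjusted by Benjamini-Hochberg over all of them, at a threshold of 0.05. The code was tested on simulated data. With 2 arrays against 2 an exact test cannot go below p = 0.33, so none is given. Replicates were numbered in accession order.

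Genes were named from GEO's platform annotation and checked by Entrez identifier: 20758 of 20826 probe sets with a single symbol were found in the GRCr8 gene table, and 0 symbols changed. Promoters came from RefSeq, build GRCr8. The genes and lists were chosen with earlier results of these data known. Named with array values were all genes past the threshold, the brightest and the most changed tested gene of each role, and others chosen after their values were seen. Alternatives were quantile normalization, median centring, offsets of 1 and 64, no filter, a 60th percentile filter, eBayes without trend and robust, a threshold of 0.10, a fit on genes by their brightest probe set or by averaged probe sets, and leaving out each array, where the lone array was assumed to vary like the other pair.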

Additional observations from a re-analysis of the deposited data

How the results depend on the processing

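No paired analysis was possible because the replicate numbers were given in accession order and pair nothing. The main counts were 5 channel genes that rose and 1 that fell. With median centring 11 rose, with the filter at the 60th percentile, which tested 14 of the genes, 2 rose, and at a threshold of 0.10 there were 2 falls. With each array left out in turn the rises ranged from 1 to 10 and the falls from 1 to 4. The rises over all tested probe sets, 2180, were 1094 with probe sets averaged per gene, 1246 with 1 probe set per gene, both over fewer features, and 785 to 2638 with an array left out. The falls, 3619, were 2201 with probe sets averaged per gene and 893 to 3800 with an array left out. Of the 6 calls, Kcnk5 and Kcnh2 kept direction and threshold in every alternative that tested them. Kcnk12, Kcnj8 and Kcnmb4 lost the call in 2 settings each and Kcns3 in 4, as given with each gene. Of the scaffolds and trafficking regulators 2 rose with either immobilized array left out, without the filter and without the trend, and 7 rose without unstressed 1. Of the HCN and sodium channels 3 rose without unstressed 1 and 0 with either immobilized array left out. Of the partner proteins 1 rose without unstressed 1, and 0 fell without immobilized 2. Causes were not tested. Low signals limit Kcnk5, Kcnk12 and the 43 untested genes, and 2 arrays a group limit every value.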

Other observations

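Of the nearest protein-coding neighbours of the 6 channel genes past the threshold, in the order of the GRCr8 gene table, 9 were tested, of which 1 rose, 5 fell and 3 did not pass, beside 11.7% of all tested probe sets that rose and 19.4% that fell. Saysd1, next to Kcnk5, read 1917 and 1460 after immobilization and 4666 and 4697 in unstressed rats, a log2 change of -1.48 ± 0.18 (adjusted p = 0.00198 in limma), while Kcnk5 itself rose. Nos3, the endothelial nitric oxide synthase gene on one side of Kcnh2, read 1469 and 1249 after immobilization and 408.3 and 306.5 in unstressed rats, a rise of 1.89 ± 0.25 (adjusted p = 0.00257 in limma). Nup42, on its other side, had a change of -1.31 ± 0.20 (adjusted p = 0.00413 in limma), close in size to that of Kcnh2. Msh6, a DNA mismatch repair gene next to Kcnk12, had -1.18 ± 0.17, Cnot2, next to Kcnmb4, had -0.55 ± 0.12, and Rdh14, next to Kcns3, had -0.72 ± 0.18. These neighbours were looked at after the channel genes had been called, and no relation between neighbours was tested.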
